A study of Mus musculus with 12 samples.

Results

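Dlx3, Dlx5 and Msx2 are 3 homeobox genes of bone-forming cells. They were chosen by current mouse gene symbol, each matched 1 spot, and the 3 spots are described here among 5030 on the array. The arrays were 12 one-colour spotted arrays of total RNA, 3 in each of 4 groups. The 2T3 groups were C0 and low, and those of MLO-Y4 were low and high. 2T3 is a mouse osteoblast line from an animal whose BMP-2 promoter drove SV-40 T antigen, and MLO-Y4 is a mouse osteocyte line from an animal with T antigen behind the osteocalcin promoter. All 4 groups therefore carry T antigen. Per the labels, 2T3 was taken sparse or confluent, and MLO-Y4 with or without gap junctions. The labels do not spell out C0, and low and high are used here as the labels give them. Each cell type is 1 line, so cell type and line cannot be told apart. The labels do not say whether arrays of a group came from separate cultures, so a p-value reflects array-to-array spread alone, possibly technical.

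Dlx and Msx proteins bind DNA through a closely related homeodomain at sites with a TAAT core, and are induced by bone morphogenetic protein (BMP) signalling in the skeleton. Msx2 acts mainly as a repressor that holds osteoblast precursors in an immature, dividing state. Dlx5 is an activator that opposes Msx2 on promoters of bone matrix genes, and Dlx3 acts on many of the same genes at later stages of maturation. In rodent osteoblasts, occupancy of the osteocalcin promoter passes from Msx2 to Dlx3 and Dlx5 as osteoblasts mature, so the balance among the 3 is of interest between an osteoblast and an osteocyte line.

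Of the 3 members, only 1, Msx2, matched the RefSeq promoter table of build GRCm38.p6, so its sequence alone is shown. Msx2 was also the member called between the lines, and Msx and Dlx proteins themselves bind TAAT-type sites. The 300-base window spans the start of Msx2, at chr13:53472731-53473030 on the minus strand, printed on the gene's strand with every TAATT, on either strand, in capitals.
Msx2: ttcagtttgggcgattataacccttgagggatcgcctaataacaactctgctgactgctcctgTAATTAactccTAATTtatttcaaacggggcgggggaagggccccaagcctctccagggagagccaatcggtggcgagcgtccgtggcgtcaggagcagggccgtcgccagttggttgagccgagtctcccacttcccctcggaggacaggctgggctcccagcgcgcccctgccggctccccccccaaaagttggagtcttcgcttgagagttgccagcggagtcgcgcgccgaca
TAATT was found at 3 positions, 2 of which overlap on opposite strands within TAATTA. The same search in the window of Dlx2, another family gene lower in MLO-Y4, found TAATT and TAATTA at 0 positions. Among 32851 promoters of the same length, 27.0% held TAATT at least once and 3.97% at 3 or more positions, while 5.3% held TAATTA. The Msx2 window was 61.0% G and C, against a median of 52.7%. A match describes letters in this window and not a bound site.

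Depth differed between arrays. Median deposited intensity per array ran from 4 to 55, and 37.9% to 74.8% of spots lay above the detection limit, taken on each array as the size of its lowest value. The lowest shares, 38.1% and 37.9%, belonged to MLO-Y4 low and high replicate 1. These arrays correlated with the other arrays of their group at a Spearman rho of 0.669 to 0.720, against 0.832 and 0.840 between replicates 2 and 3. In the same way replicate 1 stood apart in 2T3 C0 (0.659 and 0.727 against 0.878) and in 2T3 low (0.713 and 0.714 against 0.868). Results for the members are therefore given with and without the 4 arrays numbered 1. Markers of both cell types were read in both lines. Their lists were chosen with earlier results of these data known, so they are no check of line identity. The osteocalcin gene Bglap was above the limit on 6 of 6 2T3 and 4 of 6 MLO-Y4 arrays, and the bone sialoprotein gene Ibsp on 4 and 1. Over all spots, 5.83% were called higher and 3.48% lower in MLO-Y4. Of 7 measured osteocyte markers, Ackr3, Capg, Cd44, Dstn and Pdpn were higher in MLO-Y4 by limma (adjusted p under 0.05), while Phex was above the limit on 0 of 12 arrays. The calls of these osteocyte markers were not followed through the alternative fits. Of 7 osteoblast markers, Col1a2 was lower, a call lost with equal medians and without the arrays numbered 1, and Alpl, above the limit on all 12 arrays, was at 2.08 without passing the test.

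Dlx3, an activator of late osteoblast genes, was bright on all 6 MLO-Y4 arrays. Its deposited intensity was 15, 710 and 467 on the 2T3 C0 arrays 1 to 3, and 713, 178 and 32 on the 2T3 low arrays. It was 863, 1002 and 493 on the MLO-Y4 low arrays, and 771, 2499 and 319 on the MLO-Y4 high arrays. Deposited values are not scaled between arrays, and the value of 32 comes from the dimmest array, with a mean intensity of 42.2. All 12 values were above the limit of their array, but the 15 on 2T3 C0 replicate 1 was barely above a limit of 13. By rank on its own array, which no linear scaling changes, the Dlx3 spot lay at the 92.7th to 97.9th percentile in MLO-Y4. In 2T3 it lay at the 82.0th to 92.6th percentile on 5 arrays and at the 40.1st on C0 replicate 1. The lines did not overlap in rank, but by a narrow margin, with 92.6 on 2T3 low replicate 1 against 92.7 on MLO-Y4 high replicate 3. The 2T3 C0 replicate 1 value lay 3.56 log2 units below the other 5 2T3 arrays, and 77 of 5030 spots (1.53%) lay at least 3 below, a size chosen after the values were seen.

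**Figure D1:**
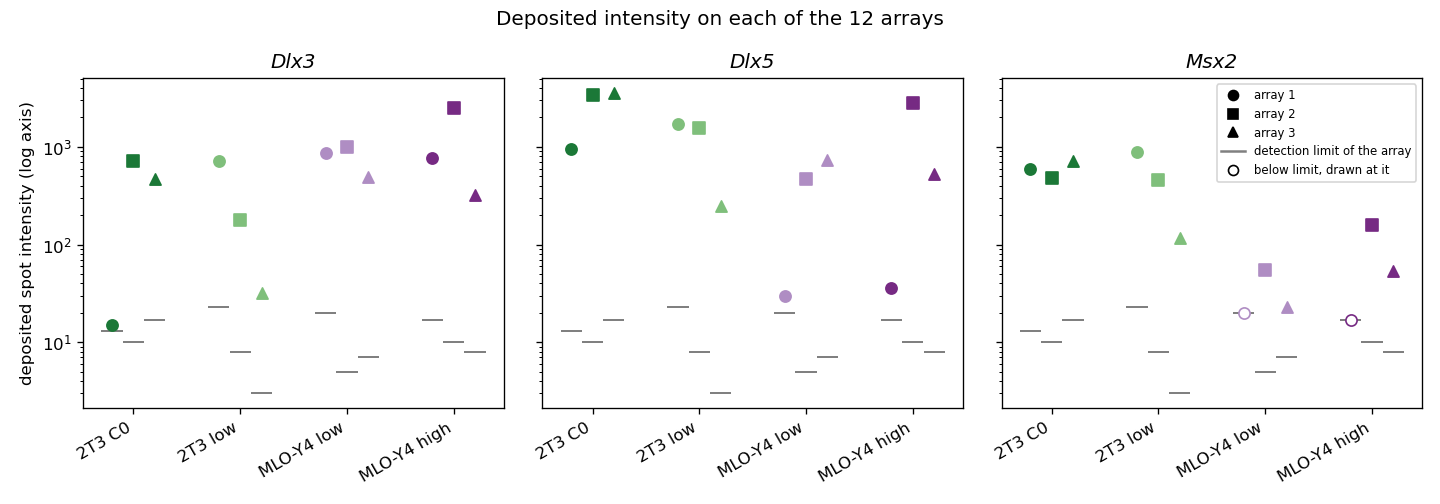
Deposited spot intensity of Dlx3, Dlx5 and Msx2 (log axis) on each array, by group. Marker shape gives the array number, grey bars the detection limit of that array, and open markers values below it drawn at the limit. Dlx3 is near the limit on 2T3 C0 replicate 1 only, Dlx5 is low on both MLO-Y4 arrays numbered 1 (30 and 36), and Msx2 runs from -11 to 157 in MLO-Y4 and from 118 to 884 in 2T3.

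After quantile normalization between arrays and a floor at the 25th percentile, the mean log2 level of Dlx3 was 10.03 ± 0.66 in MLO-Y4 low, 9.85 ± 0.94 in MLO-Y4 high, 7.91 ± 0.91 in 2T3 low and 6.93 ± 2.73 in 2T3 C0 (SD, n = 3 each). MLO-Y4 low and high overlapped, as did 2T3 low and C0, while MLO-Y4 high lay above 2T3 low without overlap. Over both densities Dlx3 was 2.52 higher in MLO-Y4 on the log2 scale (SE 0.81, 95% interval 0.70 to 4.33, 5.73-fold), from a geometric mean of 171 to 980. By limma this did not pass (adjusted p = 0.0926). The exact two-sided permutation test of 6 against 6 arrays gave p = 0.00216, the smallest that 924 arrangements allow, and it treats all arrays as independent. It is not adjusted for the choice of members, made with earlier results known. Lines without overlap, which give this smallest p, were found for 5.84% of all spots. The limma adjusted p was 0.0134 with arrays scaled to equal medians (difference 3.38), 0.0354 with an offset of 50 in place of the floor (2.02) and 0.0468 among spots above the limit on 3 or more arrays. Without 2T3 C0 replicate 1 the difference was 1.73, and no fit that left out a single array called it (limma adjusted p from 0.0528 to 0.180). Without the 4 arrays numbered 1 it was 2.08 (0.0868).

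Dlx5, the activator that opposes Msx2, was bright on 10 of 12 arrays. Its deposited intensity was 952, 3392 and 3525 in 2T3 C0, and 1728, 1558 and 249 in 2T3 low. It was 30, 474 and 739 in MLO-Y4 low, and 36, 2785 and 528 in MLO-Y4 high. The 2 low values are the arrays numbered 1 of MLO-Y4, where the limits were 20 and 17. By rank Dlx5 lay at the 96.0th to 98.5th percentile in 2T3 and at the 95.2nd to 98.2nd on MLO-Y4 arrays 2 and 3, but at the 65.0th and 68.9th on the arrays numbered 1. Both of those arrays lay at least 3.52 log2 units below the other 4 MLO-Y4 arrays. A gap of at least 3 log2 units was found for 106 of 5030 spots (2.11%). Dlx3 and Msx2 were not among them.

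The mean log2 level of Dlx5 was 10.79 ± 0.73 in 2T3 C0, 10.39 ± 0.088 in 2T3 low, 8.95 ± 2.54 in MLO-Y4 high and 8.52 ± 2.39 in MLO-Y4 low (SD, n = 3 each). All neighbours in this order overlapped. Dlx5 was 1.86 lower in MLO-Y4 on the log2 scale (difference -1.86, SE 0.93, 95% interval -3.94 to 0.22), and this did not pass (limma adjusted p = 0.301; exact permutation p = 0.0541). Without the 4 arrays numbered 1 the difference was -0.68 (SE 0.34, 95% interval -1.55 to 0.19, limma adjusted p = 0.328). Leaving out only MLO-Y4 low or high replicate 1 gave -1.16 and -1.14.

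Msx2, the repressor of osteoblast maturation, was the member that passed the test between the lines. Its deposited intensity was 590, 476 and 721 in 2T3 C0, and 884, 463 and 118 in 2T3 low. It was 16, 55 and 23 in MLO-Y4 low, and -11, 157 and 54 in MLO-Y4 high. Every 2T3 value was above its limit, while 4 of 6 MLO-Y4 values were, the exceptions being the arrays numbered 1. By rank Msx2 lay at the 88.3rd to 94.1st percentile in 2T3 and no higher than the 75.7th in MLO-Y4, so the lines did not overlap.

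**Figure D2:**
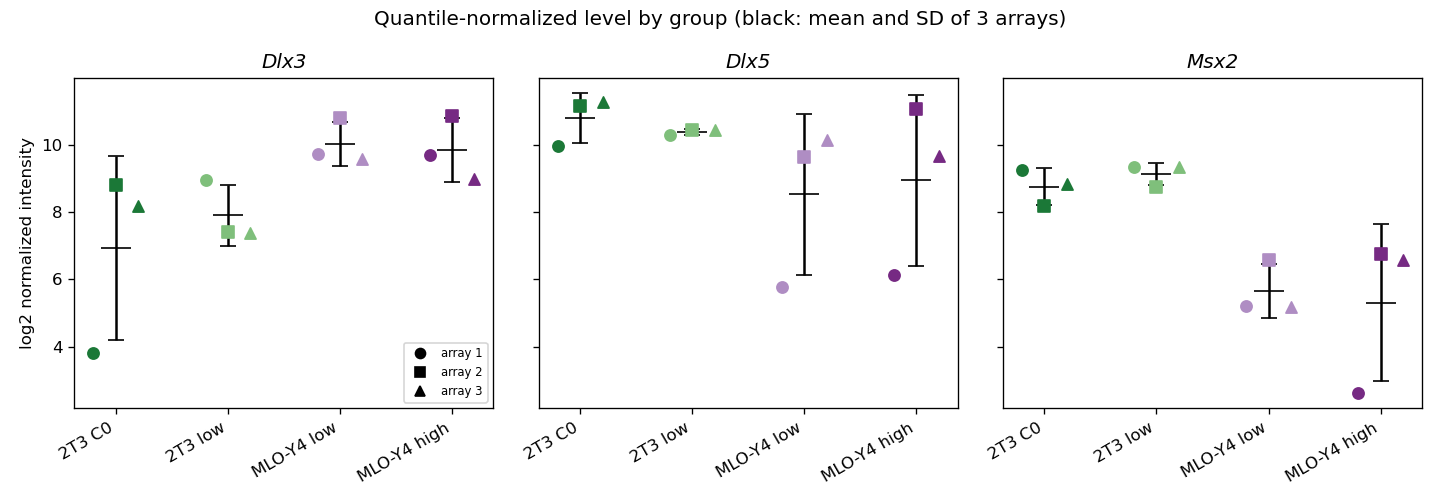
Log2 quantile-normalized intensity of the 3 genes by group, with each array as a point (shape gives its number) and the mean and SD of 3 arrays in black. The Dlx3 values of MLO-Y4 lie above and the Msx2 values below those of 2T3, while Dlx5 overlaps and its MLO-Y4 spread (SD 2.39 and 2.54) comes from the arrays numbered 1.

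The mean log2 level of Msx2 was 9.14 ± 0.33 in 2T3 low, 8.75 ± 0.54 in 2T3 C0, 5.66 ± 0.80 in MLO-Y4 low and 5.31 ± 2.34 in MLO-Y4 high (SD, n = 3 each). Neighbours within a line overlapped, and 2T3 C0 lay above MLO-Y4 low without overlap. Between the lines Msx2 was lower in MLO-Y4, at a log2 difference of -3.46 (SE 0.68, 95% interval -4.97 to -1.95, limma adjusted p = 0.00998), from a geometric mean of 493 to 44.7, 11.0-fold. The exact permutation p was 0.00216, again the smallest possible and not adjusted for the choice of members. One MLO-Y4 value lay at the floor, so the fold rests partly on background. Without the 4 arrays numbered 1 the fall was 2.50 (log2 difference -2.50, SE 0.38, limma adjusted p = 0.0272). All 12 fits without a single array also called it (differences from -3.80 to -2.75, limma adjusted p from 0.00141 to 0.0301).

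Of the 3 members, 1 was called between the lines, where 9.3% of all spots were called, 5.83% higher and 3.48% lower. In 2 of the 3 the arrays of the lines did not overlap, as for 5.84% of all spots. No member was called in the line comparisons of single groups in the fit of all arrays, where 3.94% of spots were called between the low groups and 3.36% between MLO-Y4 high and 2T3 C0. Msx2 was at -3.48 between the low groups (SE 0.96, limma adjusted p = 0.0875) and at -3.45 between MLO-Y4 high and 2T3 C0 (SE 0.96, adjusted p = 0.0968). The p between the low groups was 0.0393 when only the arrays compared were fitted. Without the arrays numbered 1 the 2 values were -3.15 (SE 0.54, adjusted p = 0.0577) and -1.85 (SE 0.54, 0.197), and the second was -2.07 without MLO-Y4 high replicate 1 alone. Dlx3 was at 2.12 (SE 1.15, limma adjusted p = 0.455) and 2.92 (SE 1.15, 0.264), and without the arrays numbered 1 at 2.76 (SE 0.73, 0.139) and 1.41 (SE 0.73, 0.488). Leaving out 2T3 C0 replicate 1 alone took the second Dlx3 value to 1.35. Dlx5 was at -1.87 (SE 1.32, 0.607) and -1.85 (SE 1.32, 0.666), and without the arrays numbered 1 at -0.54 (SE 0.47, 0.641) and -0.82 (SE 0.47, 0.547). Leaving out MLO-Y4 low replicate 1 alone took the first Dlx5 value to -0.49, and leaving out MLO-Y4 high replicate 1 the second to -0.43. Without overlap between the lines were Dlx3, Dlx5 and Msx2 between the low groups, as 18.9% of all spots, and Dlx3 and Msx2 between MLO-Y4 high and 2T3 C0, as 16.6%.

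No member was called between culture states. Between C0 and low in 2T3, the log2 difference was -0.98 for Dlx3 (95% interval -3.55 to 1.59), 0.40 for Dlx5 (-2.54 to 3.34) and -0.38 for Msx2 (-2.52 to 1.76). Between high and low in MLO-Y4 it was -0.18 for Dlx3 (-2.74 to 2.39), 0.42 for Dlx5 (-2.52 to 3.36) and -0.35 for Msx2 (-2.49 to 1.79). Each interval comes from the fit without pairing and reaches at least 1.59 log2 units in either direction. Same-numbered MLO-Y4 arrays varied together, and within numbers 1, 2 and 3 the high minus low log2 difference was -0.02, 0.074 and -0.59 for Dlx3, 0.35, 1.41 and -0.49 for Dlx5 and -2.61, 0.15 and 1.41 for Msx2. Limma called 0 of 5030 spots (0%) in either comparison and 0 (0%) for the difference of the 2 culture-state effects, with 266, 116 and 145 at an unadjusted p under 0.05. The culture-state effects of the lines differed by 0.80 for Dlx3, 0.021 for Dlx5 and 0.031 for Msx2 (SE 1.63, 1.87 and 1.36, limma adjusted p at or near 1 each). Without the arrays numbered 1, Dlx3 in 2T3 turned to 1.10 and Msx2 in MLO-Y4 to 0.77. The difference of the 2 effects turned to -1.35 for Dlx3 and -0.28 for Dlx5, and these directions are not settled.

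Ratios of deposited intensities within an array do not depend on linear scaling between arrays. Their sign has no meaning across different spots, and a shift between groups shows unequal change only. Where Msx2 was below the limit, the limit was used, which makes the ratio a lower bound. The log2 ratio of Dlx3 to Msx2 was -5.30, 0.58 and -0.63 on the 2T3 C0 arrays and -0.31, -1.38 and -1.88 on the 2T3 low arrays. It was at least 5.43, then 4.19 and 4.42 on the MLO-Y4 low arrays, and at least 5.50, then 3.99 and 2.56 on the MLO-Y4 high arrays. Every MLO-Y4 array lay above every 2T3 array, with a gap from 0.58 to 2.56 between the lines. Dlx3 ranked higher and Msx2 lower on every MLO-Y4 array, so this separation largely restates those results. How many other pairs of spots separate the lines was not counted. The log2 ratio of Dlx3 to Dlx5 also did not overlap, with a highest value of -1.28 in 2T3 and a lowest of -0.73 in MLO-Y4. The ratio of Dlx5 to Msx2 ran from 0.69 to 2.83 in 2T3 and from 3.11 to 5.01 on MLO-Y4 arrays 2 and 3, all 4 above every 2T3 array. The MLO-Y4 arrays numbered 1 gave only lower bounds, 0.58 and 1.08, so whether the lines overlap in this ratio cannot be read from them.

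**Figure D3:**
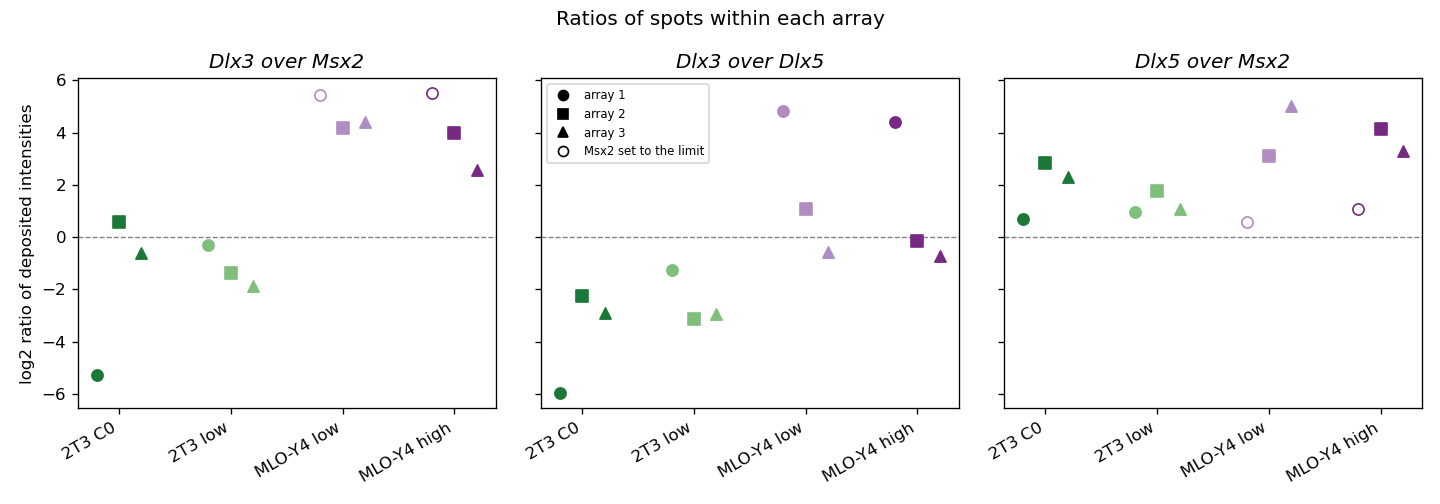
Log2 ratio of the deposited intensities of a pair of spots within each array, by group, with open markers where Msx2 was below the limit and the limit was used. Dlx3 over Msx2 and Dlx3 over Dlx5 are higher on every MLO-Y4 array than on any 2T3 array, while Dlx5 over Msx2 is higher on the 4 MLO-Y4 arrays numbered 2 and 3 (3.11 to 5.01) and has only lower bounds on those numbered 1.

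All 9 genes of the Dlx and Msx family had a spot. In the RefSeq table Dlx3 and Dlx4 are neighbouring genes on 1 chromosome, as are Dlx5 and Dlx6, and Dlx1 and Dlx2. Dlx4, the neighbour of Dlx3, had intensities of 3, 74 and 48 in 2T3 C0, 46, 41 and 2 in 2T3 low, 5, 331 and 390 in MLO-Y4 low, and 13, 840 and 544 in MLO-Y4 high. In each line 4 of 6 arrays were above the limit, and both MLO-Y4 arrays numbered 1 were below it. Those arrays lay at least 4.03 log2 units under the other 4, as for Dlx5 and unlike Dlx3. Dlx4 was at 3.44 between the lines on the log2 scale (SE 1.12, limma adjusted p = 0.0942). It was called in 5 of 19 alternative fits. These were the fit with the replicate block (adjusted p = 0.0158), that of spots above the limit on 3 or more arrays (0.0408), those without MLO-Y4 low or high replicate 1 (0.0189 and 0.0434), and that without the 4 arrays numbered 1 (4.62, SE 0.42, 0.00805).

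Dlx2, which acts in the forebrain and the jaw skeleton, was lower in MLO-Y4, at -2.15 on the log2 scale (SE 0.30, limma adjusted p = 0.00148, 4.44-fold). All 12 arrays measured it above the limit. It was also called between the low groups (-1.96, SE 0.42, limma adjusted p = 0.0291) and between MLO-Y4 high and 2T3 C0 (-2.34, SE 0.42, 0.0130). Its call between the lines held in all 19 alternative fits, while those between single groups were lost without the arrays numbered 1, at -1.84 and -2.50 (adjusted p = 0.169 and 0.103). Its neighbour Dlx1 was at -1.08 (SE 0.55, limma adjusted p = 0.304) and Dlx6, the neighbour of Dlx5, at -0.16 (SE 1.11, 0.963). Msx1, the closest relative of Msx2, was above the limit on 0 of 12 arrays, and Msx3 on 3 of 6 2T3 and 0 of 6 MLO-Y4 arrays. Spots of related genes can share sequence, and the part of cross-hybridization within the family was not tested.

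**Figure D4:**
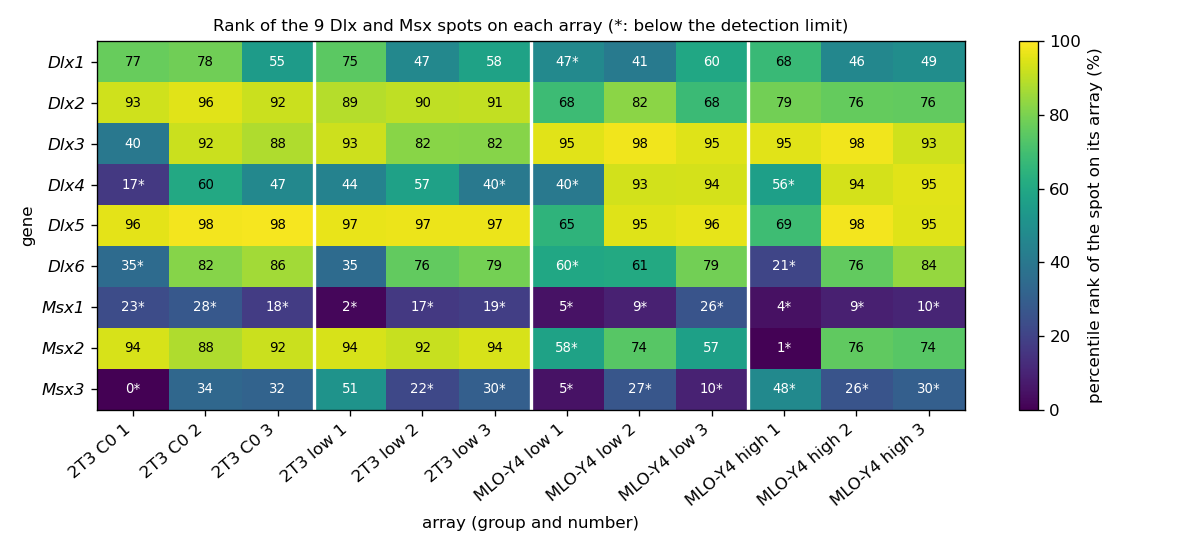
Percentile rank of each Dlx and Msx spot among the 5030 spots of its array, for the 9 genes (rows) and 12 arrays (columns, by group and number), with an asterisk below the detection limit. Dlx2 and Msx2 rank higher on every 2T3 array than on any MLO-Y4 array, Dlx3 the reverse, and Dlx4 and Dlx5 drop on both MLO-Y4 arrays numbered 1.

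Among the other homeobox genes, 3 of 109 measured were higher and 5 lower in MLO-Y4 by limma, with a median log2 difference of -0.12 against -0.032 over all spots. These counts stand beside 5.83% of all spots higher and 3.48% lower, and nothing particular to homeobox genes is read from them. Hoxc10, a positional gene of the posterior body, was above the limit on 6 of 6 MLO-Y4 and 1 of 6 2T3 arrays. Its fitted difference of 4.69 (SE 0.45) rests on background in 2T3 and ran from 2.39 to 5.39 over the 19 alternative fits, all of which called it. Six2, which keeps progenitors undifferentiated in the kidney, was at -4.84 (SE 0.35), with 3 of 6 MLO-Y4 arrays above the limit and a range of -5.45 to -2.95. Tgif1, a repressor of TGF-beta responses, was at 1.67 (SE 0.31). Hoxa5 (2.40), Alx4 (-2.76), Vax1 (-1.37) and Barx1, at least 1.16-fold lower, were also called. Meis2 (-1.84), named after its value was seen and not followed through the alternative fits, was called too. Of 19 alternative fits, the call was lost in 6 for Hoxa5, 8 for Alx4 and 7 for Vax1, and without the arrays numbered 1 for Barx1.

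Of 24 measured BMP signalling genes, which act upstream of Dlx and Msx genes, 4 were higher and 1 lower in MLO-Y4, with a median log2 difference of 0.074. Over all spots, 5.83% were higher and 3.48% lower. The BMP antagonist gene Grem1 was 42.6-fold higher (log2 5.41, SE 0.70, limma adjusted p = 9.23e-04) and Tob1, an antiproliferative gene that restrains BMP signalling, 3.00-fold (1.59, SE 0.29). The type I receptor gene Acvr1 was at 2.99 (SE 0.49), a call that leaving out the arrays numbered 1 removed (2.44, SE 0.53, adjusted p = 0.0632). The receptor gene Bmpr1b was at 2.44 and the BMP-induced inhibitor gene Id3 at -1.60. Bmpr1b was above the limit on 2 of 6 2T3 arrays, so its difference rests partly on background. These calls were lost in 14 and 15 of 19 fits, for Id3 among them that with the replicate block (limma adjusted p = 0.0530). The ligand gene Bmp4 was at 0.46 (SE 0.45, limma adjusted p = 0.645). Bmp2, whose promoter drives the transgene of 2T3, was above the limit on 1 of 6 2T3 and 0 of 6 MLO-Y4 arrays.

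Of 23 measured osteoblast transcription factors, 5 were higher and 0 lower, with a median log2 difference of 0.52. This count, and that of the matrix genes below, stands beside 5.83% of all spots higher and 3.48% lower. Foxo1, a stress-responsive factor that acts in osteoblasts, was 10.5-fold higher (log2 3.39, SE 0.44) and Fosl1, an AP-1 subunit of bone-forming cells, 3.62-fold (1.86, SE 0.20). Foxc2 was at 3.04 (SE 0.47) and Cebpb at 2.36 (SE 0.51), and neither was called without the arrays numbered 1 (2.90 and 1.54, adjusted p = 0.0577 and 0.0867). Vdr, the vitamin D receptor gene, was at 1.45 (named after its value was seen and not followed through the alternative fits). Matrix and mineralisation genes, which include targets of Dlx and Msx proteins, gave 0 higher and 2 lower of 20, with a median of -0.33. Ank, a pyrophosphate transporter gene, was at -2.02 (SE 0.26), and the type I collagen gene Col1a2 at -2.61 (SE 0.57). Both calls were lost with equal array medians, and that of Col1a2 also without the arrays numbered 1. The alkaline phosphatase gene Alpl was at 2.08 (SE 0.71, limma adjusted p = 0.111) and was called with equal medians (2.85, 0.0389), with the replicate block (0.0404) and without 2T3 low replicate 1 (2.75, 0.0178). Bglap was at -2.02 (SE 0.99, adjusted p = 0.287) and Ibsp at -0.47 (SE 0.60, 0.741). Of 9 binding partners of Dlx5 and Msx2, 0 were called, with a median of 0.046.

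Markers of other cell types were also read between the lines. By limma, 1 of 7 chondrocyte markers was higher (Col10a1) and 1 of 3 adipocyte markers lower (Pparg). Of 6 macrophage and osteoclast markers, 1 was higher (Csf1r) and 1 lower (Tyrobp). Csf1r was above the limit on 2 of 6 MLO-Y4 and 1 of 6 2T3 arrays, so its call rests largely on background. In MLO-Y4, Pparg was above the limit on 2 of 6 arrays and Tyrobp on 1 of 6. These calls were not followed through the alternative fits. None was called of 5 muscle and 6 endothelial markers. These counts stand beside 5.83% of all spots higher and 3.48% lower. Deposited values are not scaled between arrays. The summed deposited intensity of the adipocyte list ran from 19 to 352 in 2T3 and from 2 to 39 in MLO-Y4. In the same order, the chondrocyte list ran from 21 to 562 and from 88 to 629, and the macrophage list from 73 to 689 and from 93 to 401. The muscle list ran from 38 to 637 and from 72 to 561, and the endothelial list from 48 to 410 and from 17 to 269. The part of these markers in the results above was not tested.

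Genes with the pattern most like each member were ranked by the root mean square difference of log2 values over the 12 arrays, each spot centred on its own mean, among 2765 other spots above the limit on all arrays of a group. The arrays share scaling and background, so likeness is a description. For Dlx3 the nearest were Gas7 (0.51 log2 units), the acute-phase gene Orm1 (0.71), the zinc finger factor gene Klf5 (0.89), the phosphodiesterase gene Pde10a (0.97) and T2 (0.98), against a median of 2.11 over all ranked spots. For Dlx5 they were the histidine decarboxylase gene Hdc (0.50), the ephrin receptor gene Epha8 (0.52), the AP-1 family gene Batf (0.59), the laminin gene Lama2 (0.63) and the trypsin gene Prss2 (0.67). For Msx2 they were the sialidase gene Neu3 (0.82), the presenilin gene Psen2 (0.86), the actin-binding drebrin gene Dbn1 (0.89), the dehydrogenase gene Gcdh (0.93) and Mag (0.93). All 5 genes named for Dlx3 were below the limit on 2T3 C0 replicate 1, the array where Dlx3 was barely above it. All 5 named for Dlx5 were below the limit on both MLO-Y4 arrays numbered 1, where Dlx5 was low. How far the likeness rests on those arrays was not tested. With the other 2 scalings, 4 and 4 of 5 were shared for Dlx3, 4 and 3 for Dlx5 and 4 and 3 for Msx2. Among the members, Dlx5 and Msx2 were 1.39 apart, Dlx3 and Dlx5 2.77, and Dlx3 and Msx2 3.43.

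The choice of scaling bears on all line differences. Spots above the limit on all 12 arrays had a median difference of 0.038 between the lines with quantile normalization, 0.79 with equal medians and -0.072 with scaling on detected spots. Calls split into 293 higher and 175 lower, 414 and 94, and 240 and 308 in that order. The Dlx3 difference was 2.52, 3.38 and 2.52 in that order. Msx2 was called with each of the 3 (-3.46, -3.03 and -3.69), and Dlx5 with none (-1.86, -1.19 and -2.04).

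**Figure D5:**
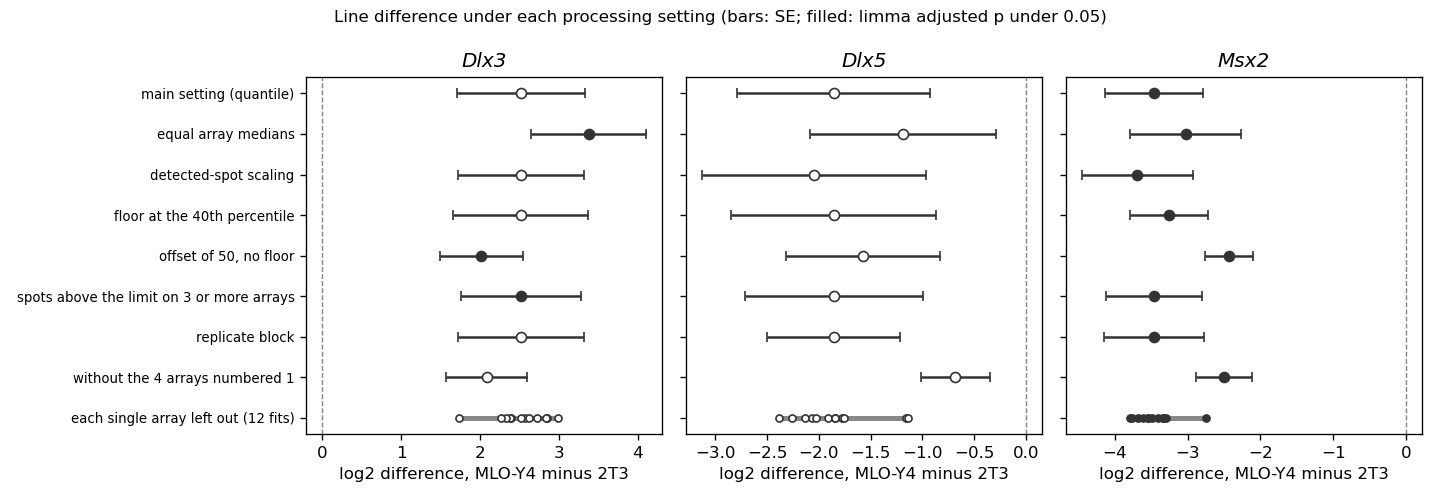
Log2 difference of MLO-Y4 minus 2T3 for the 3 genes under each processing setting, with the SE as bars and filled points where the limma adjusted p is under 0.05. Msx2 is called in every setting shown, Dlx5 in none, and Dlx3 in 3, while no setting shown changes the sign of any of them.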

How the data were processed

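The deposited spot intensities are whole numbers from -23 to 53055, and their negative values mean that background was taken off. How images were read is not given in the sources used here. A platform annotation table gave 1 symbol for 4633 of 5030 spots, several for 5 and none for 392. Entrez identifiers brought 4624 of these symbols up to date. Intensities were quantile-normalized, floored at their 25th percentile (6.08) and taken to log2. limma 3.58.1 in R 4.3.3 estimated 4 group means over 12 arrays (8 residual degrees of freedom), with lmFit, eBayes and two-sided tests, adjusted by Benjamini-Hochberg over all spots at 0.05. The procedure was tested on simulated data. The number of arrays limits the precision.

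The members and lists were chosen with earlier results of these data known. Named were the members, the 5 spots most like each, up to 4 called genes per list and direction, and Alpl, Bglap, Ibsp, Bmp2 and Bmp4. Folds with no array of the dimmer side above the limit are bounds, the brighter mean over the mean of the higher of each array's lowest detected signal and the spot's own.

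Whether equal numbers pair arrays was checked by correlating deviations from group means: 0.625, 0.475 and 0.505 between MLO-Y4 low and high, 0.526, 0.311 and 0.368 between 2T3 C0 and MLO-Y4 high, 0.495, 0.276 and 0.414 between 2T3 C0 and MLO-Y4 low, and 0.039, 0.064 and 0.152 between 2T3 C0 and low. By the rule of over 0.1 in every pair, equal numbers passed in these first 3 comparisons, lines included, but those of 2T3 low with no group. In the same 3 comparisons, arrays numbered 2 correlated with arrays numbered 3 at 0.003 to 0.273. Arrays numbered 1 correlated negatively with those of other numbers. Deviations from a group mean cancel within the group, so this sign follows in part from the calculation. The arrays numbered 1 stand apart in each group, but that of 2T3 low correlated with the others numbered 1 at only 0.003 to 0.039. For the groups other than 2T3 low, the rule alone cannot tell pairing from a difference that their arrays numbered 1 share. Alternatives were equal medians, scaling on detected spots, a floor at the 40th percentile, an offset of 50, spots above the limit on 3 or more arrays, a replicate block, each array left out, the arrays numbered 1 left out, and only the groups compared.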

Additional observations from a re-analysis of the deposited data

How the results depend on the processing

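Of 354 alternative values of the 3 members, 317 kept direction and side of the threshold, 9 gained a call, none lost one and 28 changed sign, all 28 in culture-state comparisons that were not called. Calls were gained by Dlx3 between the lines (adjusted p = 0.0134, 0.0354 and 0.0468 with equal medians, an offset and the filter, at 3.38, 2.02 and 2.52). By Msx2 they were gained between the low groups with the floor at the 40th percentile (-3.48), the offset (-2.57), the filter (-3.48) and only the groups compared (-3.42), and between MLO-Y4 high and 2T3 C0 with the offset (-2.28). The cause was not tested. Without the 4 arrays numbered 1 the culture-state difference turned to 1.10 for Dlx3 in 2T3 and 0.77 for Msx2 in MLO-Y4, and the difference of the 2 culture-state effects to -1.35 for Dlx3 and -0.28 for Dlx5. That difference also turned for Dlx5 with the offset (-0.031) and for Msx2 with equal medians (-0.17), and the 40th percentile floor took Msx2 in MLO-Y4 to 0.054. With each array left out in turn, the C0 against low difference of Dlx3 ran from -1.92 to 0.59. The high against low difference ran from -0.69 to 0.25 for Dlx3, from -0.94 to 1.81 for Dlx5 and from -1.06 to 0.98 for Msx2. The difference of the 2 culture-state effects ran from -0.77 to 1.74, from -1.34 to 1.41 and from -0.67 to 1.35 in that order. Msx2 between the low groups ran from -3.92 to -3.21 and was called in 1 of 12 such fits, the one without MLO-Y4 high replicate 1. Between MLO-Y4 high and 2T3 C0, Msx2 ran from -4.13 to -2.07, Dlx3 from 1.35 to 3.87 and Dlx5 from -2.91 to -0.43, and between the low groups Dlx3 ran from 1.74 to 2.67 and Dlx5 from -2.68 to -0.49, with no call. Among other genes, Bmp2 between the lines ran from -0.52 to 0.096 and Dlx6 from -0.85 to 0.60. Counts of called spots ran from 103 to 186 between MLO-Y4 high and 2T3 C0 (169 with all arrays) and from 115 to 221 between the low groups (198). With only the groups compared, which leaves 6 arrays, they were 95 and 100, and the 40th percentile floor called 3 spots between C0 and low in 2T3 against 0. The replicate block changed no member's call, with Msx2 between the lines at -3.46 (adjusted p = 0.0143) and 584 spots called against 468. Of 512 alternative values of 27 other named genes, 441 kept direction and side, 57 lost and 8 gained a call, and 6 changed sign. Bmp2 could not be fitted under the filter. On the MLO-Y4 low and high arrays numbered 1, Msx2 was below the limit, so its values there rest on background. Dlx5 was above the limit on both (30 against 20 and 36 against 17), and the source of its low values was not tested.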
